A study of Mus musculus with 6 samples.

Results

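The genes described here are 57 mouse genes whose products build the primary cilium, carry cargo along it, or are known from inherited cystic kidney disease. They form a list of gene names, and no measured value enters the rule that picks their rows. The list itself was chosen with earlier results of these data known. All 57 were found among the 13965 rows of the deposited expression table, and all 57 were among the 13766 rows that passed the filter on low values (at least 1 CPM in at least 3 libraries, where CPM is the authors' unit, reads scaled to a library's total). A single member, Glis3, shares its row with another identifier, which has no symbol, so its values may hold reads of both. By role the members are 6 polycystin and cyst genes, 3 genes of the inversin compartment, 14 of the transition zone, 3 of the basal body, 3 small GTPases, 7 of the BBSome, 11 of the IFT-B complex, 6 of the IFT-A complex and 4 motors.

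RNA was sequenced from whole mouse kidneys at embryonic day 16. The 3 control libraries are labelled WT, miR-17~92 flx/+, which gives them 1 floxed copy of the microRNA cluster and names no transgene. The 3 mutant libraries are labelled Six2-TGC; miR-17~92 flx/flx, with both copies floxed and a transgene in which the Six2 promoter drives Cre recombinase in nephron progenitors. The transgene is named for all 3 mutant libraries and for none of the controls. Its effects and those of the floxed cluster thus cannot be told apart here. Litters 1, 2 and 3 each supplied 1 library of either genotype. The cells that never expressed Six2, such as stroma, endothelium and ureteric bud, keep the cluster, and all are present in the RNA. The labels do not say how many embryos went into a library, so the p values below measure the spread between these libraries.

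The primary cilium is a single sensory organelle on the surface of most kidney cells. It grows from a basal body, is closed off from the cell by the transition zone, and is built and emptied by intraflagellar transport (IFT), in which the IFT-B complex travels outward on kinesin-2 and the IFT-A complex returns on dynein-2. In tubule cells it carries the polycystins, the membrane proteins whose loss gives polycystic kidney disease, and it is a place where Hedgehog signals are processed. The miR-17~92 cluster encodes 6 microRNAs, and microRNAs lower the level or translation of messages that pair with their seed, bases 2 to 8.

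The mature microRNAs of the floxed cluster are shown first, because 9 members hold a match to the seed of miR-17-5p and miR-20a-5p. The sequences are RefSeq's (GRCm38.p6, chromosome 14, plus strand, from 115043684 at the first base of miR-17-5p to 115044496 at the last of miR-92a-3p), written 5′ to 3′ with the seed in capitals. miR-17-5p and miR-20a-5p share a seed, as do miR-19a-3p and miR-19b-3p.
mmu-miR-17-5p: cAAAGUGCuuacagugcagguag
mmu-miR-20a-5p: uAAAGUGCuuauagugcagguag
mmu-miR-18a-5p: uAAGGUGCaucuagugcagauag
mmu-miR-19a-3p: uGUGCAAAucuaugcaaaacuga
mmu-miR-19b-3p: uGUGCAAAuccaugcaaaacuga
mmu-miR-92a-3p: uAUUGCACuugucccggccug

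The 7-base match to the miR-17 and miR-20a seed, GCACTTT, was searched on the sense strand of the annotated 3′ UTR of 56 members (GENCODE M21, GRCm38), Tctn2 having no searched 3′ UTR. It stood in 9 of the 56 (16.1%), against 14.7% of 12943 tested rows with a searched 3′ UTR. The 9 are Pkd1, Pkd2, Bicc1, Glis3, Invs, Kif3b, Ift88, Ofd1 and Cep164, each with 1 match. The windows of the 4 cyst genes among them follow, 30 bases each in the direction of the message, with the match in capitals, because these 4 are discussed most below. They lie at chr17:24595720-24595749 (plus strand) for Pkd1, chr5:104503809-104503838 (plus) for Pkd2, chr10:70924737-70924766 (minus) for Bicc1 and chr19:28259533-28259562 (minus) for Glis3, on GRCm38. In Pkd1, Pkd2 and Bicc1 the base after the match is an A, the letter found in the strongest class of sites, and in Glis3 it is not. A match is a description of letters and not evidence of binding.
Pkd1: tatggggcttctGCACTTTaaaaaggctgt
Pkd2: ttataattttctGCACTTTaatttatttta
Bicc1: tgaggtcttccaGCACTTTacacggtctag
Glis3: tgctgacataaaGCACTTTggggggggagg

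Library totals ran from 43804667 to 54913325 reads, and every member was well covered, with 183 to 8406 reads in a library. Levels were compared between genes only as CPM per kb of transcript, averaged over the 6 libraries, with the longest coding transcript as the length. On that scale the members ran from 2.01 for Nphp4 to 55.8 for Ift20, with a median of 10.2 against 10.4 over all tested rows. Mir17hg, the host transcript of the floxed cluster, lies in a row that joins 7 identifiers and had 31.2 ± 7.18 CPM in the controls and 46.0 ± 7.01 CPM in the mutants (SD, n = 3; adjusted p = 0.222 with genotype alone, 0.0292 paired by litter). This row does not measure the mature microRNAs, so it does not show whether they were lost. Of 14 nephron progenitor markers 8 fell and 0 rose in the fit paired by litter, where 3.51% of all rows were called lower, and 4 markers were above 0 without passing. Their summed level was 911 to 932 CPM in control and 672 to 682 CPM in mutant libraries. Capn6 (286 ± 6.89 and 136 ± 6.51 CPM, SD, n = 3) was the largest part of that step. The list was chosen with earlier results of these data known, and it holds Cited1, Meox1, Meox2, Capn6 and Traf1. These are its 5 lower calls with genotype alone. The count and the step thus describe the list and do not measure progenitor number.

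The 57 genes as a group lay close to no difference between mutant and control kidneys. Their median log2 difference, mutant minus control on the log2(CPM + 0.5) scale, was -0.0032, against 0.0119 over all tested rows, and single members ran from -0.25 (B9d2) to 0.30 (Glis3). With genotype alone in limma, the planned test, 0 of 57 passed an adjusted p of 0.05, where 0.559% of all rows did. At an unadjusted p below 0.05 there were 4 members (Pkd2, Pkhd1, Bicc1 and Arl3), or 7.02%, against 11.3% of all rows. The smallest adjusted p was 0.322, for Pkd2. In RNA of a whole organ, fewer cells of a type and less RNA per cell cannot be told apart.

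Pairing by litter changed the calls. With litter as a block, 6 of 57 members passed, a share of 10.5%, where 11.4% of all rows did. Pkd1, Pkd2, Pkhd1, Bicc1 and Glis3 rose, 8.77% of the members against 7.93% of rows called higher. Arl3 fell, 1.75% of the members against 3.51% of rows called lower. Both shares are near the background. All 5 higher members belong to the 6 polycystin and cyst genes, and the other 51 members held 0 higher calls and 1 lower. The mutant library was above its control in all 3 litters for 15 members (28.3% of all rows did so, and 26.3% of members) and below it in all 3 for 11 (22.2% of rows, 19.3% of members). The groups did not overlap for 6 members (Pkd2, Pkhd1, Tmem216, Ahi1, Arl3 and Kif3b), or 10.5%, against 17.3% of rows.

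**Figure D1:**
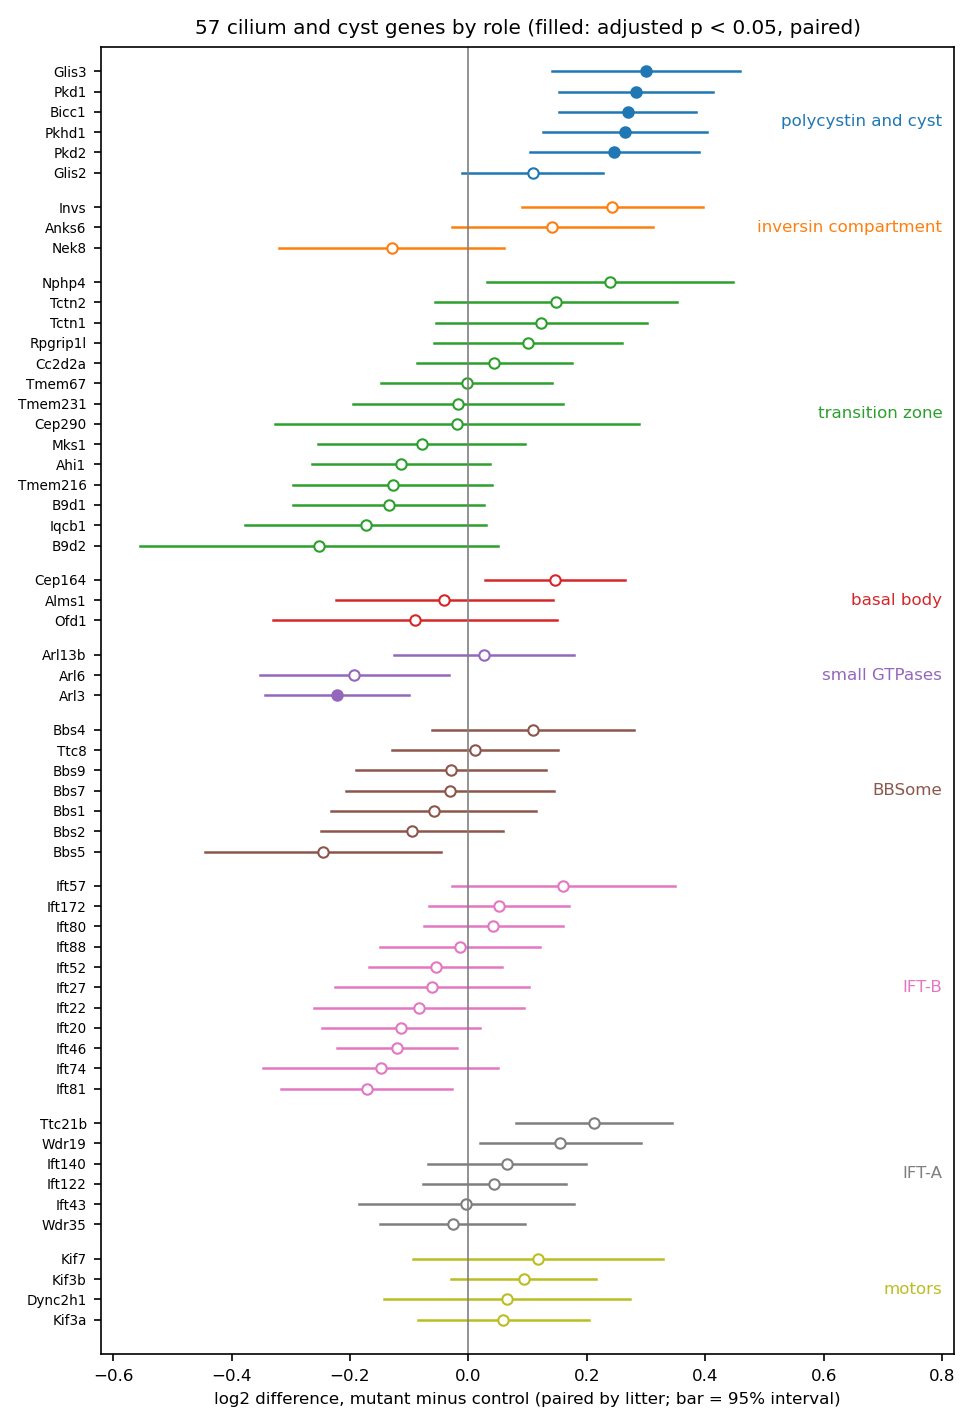
Log2 difference, mutant minus control, for each of the 57 genes (horizontal axis), grouped by role and fitted with litter as a block. Points are estimates, bars 95% intervals and filled points pass an adjusted p of 0.05. The 6 cyst genes all lie right of 0, between 0.11 and 0.30, the 4 motors lie between 0.06 and 0.12, and the other roles have members on both sides of 0.

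Pkd1 encodes polycystin-1, the large receptor-like protein mutated in most dominant polycystic kidney disease. It was read at 77.5, 87.3 and 95.2 CPM in control libraries of litters 1, 2 and 3 and at 86.3, 115.9 and 116.4 CPM in the mutant libraries of the same litters. The mutant was higher in every litter, but the mutant of litter 1 lay below the controls of litters 2 and 3, so the groups overlapped. The means were 86.7 ± 8.85 and 106.2 ± 17.2 CPM (SD, n = 3), with a log2 difference of 0.28 ± 0.057 (SE) and an adjusted p of 0.020 paired by litter, or 0.450 with genotype alone.

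Pkd2 encodes polycystin-2, the cation channel that partners polycystin-1. Its control libraries held 147.0, 125.8 and 130.7 CPM and its mutant libraries 153.8, 153.1 and 171.7 CPM. All mutant values lay above all control values, although in litter 1 the step was small. The log2 difference was 0.25 ± 0.063 (SE; adjusted p = 0.0408 paired, 0.322 with genotype alone).

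Pkhd1 encodes fibrocystin, the protein lost in recessive polycystic kidney disease. Control libraries held 41.8, 36.6 and 40.5 CPM and mutant libraries 52.3, 45.6 and 45.3 CPM, again without overlap. The log2 difference was 0.26 ± 0.061 (SE; adjusted p = 0.0303 paired, 0.346 with genotype alone).

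Bicc1 encodes an RNA-binding protein that regulates Pkd2 and other messages. Control libraries held 123.7, 115.5 and 152.3 CPM and mutant libraries 146.0, 150.9 and 173.2 CPM. Litter 3 was the highest in both genotypes, so the groups overlapped, with the mutant above its control in every litter. The log2 difference was 0.27 ± 0.050 (SE) and the adjusted p 0.0153 paired by litter, the lowest of any member, or 0.406 with genotype alone.

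Glis3 and Glis2 encode related zinc finger transcription factors, both tied to cystic or degenerating kidneys when lost. Glis3 had 21.6, 18.3 and 25.1 CPM in control and 27.7, 23.0 and 29.3 CPM in mutant libraries, with overlapping groups and a log2 difference of 0.30 ± 0.069 (SE; adjusted p = 0.0309 paired, 0.459 with genotype alone). Glis2 had 61.96, 82.2 and 87.2 CPM in control and 70.7, 88.7 and 88.8 CPM in mutant libraries. The mutant was above its control in every litter, by as little as 0.03 on the log2 scale in litter 3, and Glis2 did not pass (0.11, adjusted p = 0.206 paired, 0.826 with genotype alone).

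**Figure D2:**
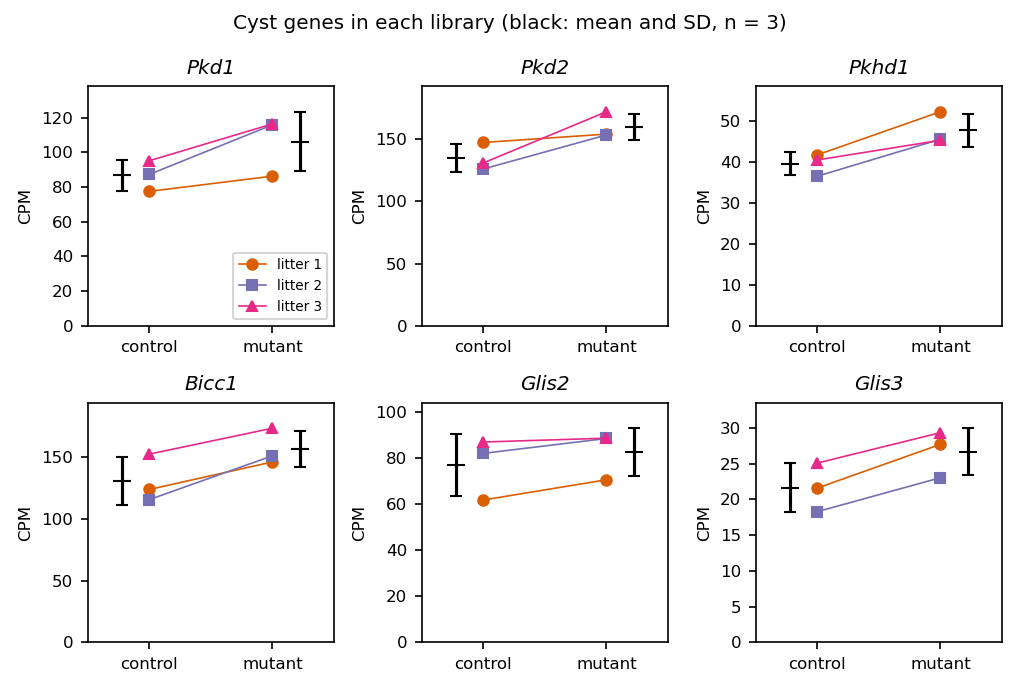
CPM of the 6 cyst genes in each library (vertical axes start at 0). Points joined by a line are the control and mutant libraries of 1 litter, and black marks are the group mean and SD (n = 3). The line slopes upward in all 3 litters for each gene, and of the 6 only Pkd2 and Pkhd1 have every mutant point above every control point.

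In the paired fit Pkd1 and Pkd2 passed with any 1 of the 3 litters left out, and the other 3 cyst genes lost the call without at least 1 litter. Without litter 1, Pkd1 (adjusted p = 0.0366) and Pkd2 (0.0341) passed, and Bicc1 (0.0758), Glis3 (0.178) and Pkhd1 (0.185) did not. Without litter 2, Pkd1 (0.0360), Pkd2 (0.0303) and Bicc1 (0.0254) passed, and Pkhd1 (0.0606) and Glis3 (0.0556) did not. Without litter 3 all 5 passed. Each of these fits has 4 libraries. With median-ratio scaling of the libraries Pkd2 had an adjusted p of 0.0530.

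The 5 cyst genes that rose have long transcripts, and length moved with the difference between genotypes throughout the table. Pkd1 has a longest coding transcript of 14.2 kb, Pkhd1 of 12.9 kb, Glis3 of 7.51 kb, Bicc1 of 5.43 kb and Pkd2 of 5.22 kb, while Glis2, which did not pass, has 3.62 kb. Over the 57 members, length and log2 difference had a Spearman's rho of 0.646, and over 13517 rows with a length it was 0.441. These are descriptions across genes that share the same 6 libraries. In rows longer than 4726 bases, 20.8% were called higher paired by litter, against 1.48% in rows of up to 2056 bases. With the rows split into 4 equal classes by length, the members' medians lay near those of all rows. They were -0.13 against -0.08 in the shortest class (9 members), -0.06 against -0.02 in the next (15), 0.04 against 0.03 in class 3 (13) and 0.11 against 0.12 in the longest (20 members). All 5 higher members were in the longest class, 5 of 20 there, and Arl3, at 1.00 kb, was in the shortest.

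After a correction that removed from each library its trend with transcript length and GC content, none of the 5 cyst genes passed with litter as a block. Pkd1 went to 0.05 (adjusted p = 0.572), Pkhd1 to 0.04 (0.757), Glis3 to 0.13 (0.284), Pkd2 to 0.14 (0.196) and Bicc1 to 0.15 (0.0972). All 6 cyst genes, Glis2 at 0.07 included, stayed above 0. With this correction 1 of 57 members passed, or 1.75%, where 5.86% of rows did, and rho with length was 0.114 over the members and 0.00820 over the rows. The member that passed was Ift46, an IFT-B subunit, which had 117.8, 124.8 and 109.6 CPM in control and 111.6, 113.2 and 99.1 CPM in mutant libraries. It was lower in every litter with overlapping groups, and fell by 0.20 on the corrected log2 scale (adjusted p = 0.0324), against -0.12 and 0.113 paired without the correction.

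The outcome for Pkd1, Bicc1 and Glis3 depended on which length was used. When length was the median over a gene's coding transcripts in the GENCODE basic set, an alternative chosen after seeing the data, Bicc1 (length 3.23 kb) passed at 0.21 (adjusted p = 0.0392) and no other member did. Pkd1 (7.61 kb) was at 0.13 (0.157) and Glis3 (5.27 kb) at 0.17 (0.170). With the median over all annotated coding transcripts, short fragments included, Pkd1's length became 0.711 kb, and Pkd1 (0.33, adjusted p = 0.0107), Glis3 (0.27, 0.0409) and Bicc1 (0.19, 0.0419) passed. Ift46 did not pass with either measure. Pkd2 and Pkhd1 have the same length under all 3 measures and did not pass with any. Whether length acts in the tissue or in the making of the libraries was not tested.

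**Figure D3:**
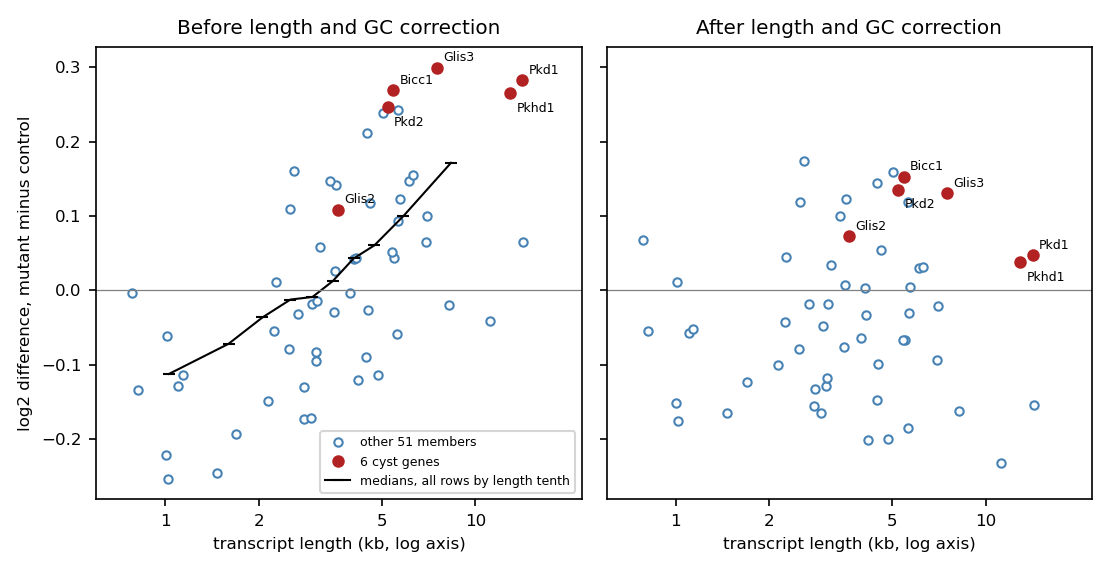
Log2 difference, mutant minus control, of the 57 members (vertical axis) against transcript length in kb (log axis), before (left) and after (right) the length and GC correction. Filled points are the 6 cyst genes, and the line joins the medians of all rows in 10 classes of length, from -0.11 in the shortest to 0.17 in the longest. Before correction the members climb with length, and after it they scatter around 0.

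Members with a miR-17 or miR-20a seed match overlapped with the members that rose. Of the 9 with a match, 4 rose in the paired fit (Pkd1, Pkd2, Bicc1 and Glis3), against 1 of 47 without, Pkhd1. Over all searched rows the shares were 13.7% and 7.34%. The matched members were also longer, with a median transcript of 5633 bases against 3495 for the members without, and a median 3′ UTR of 2131 against 664 bases. Their median log2 difference was 0.24 before the correction and 0.05 after it, and 0 of the 9 passed after it. In the 9, Ofd1 and Ift88 were below 0 (-0.09 and -0.01). Invs, Kif3b and Cep164 were above it without passing. Matches to the miR-19 seed, TTTGCAC, stood in 10 members (17.9%, against 13.4% of searched rows), of which 1, Glis3, rose. Those to miR-18a (GCACCTT) stood in 4 and those to miR-92a (GTGCAAT) in 3, with 0 called.

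The inversin compartment lies just above the transition zone and is linked to nephronophthisis, a disease of small cysts and fibrosis. None of its 3 members passed. Invs, the scaffold of the compartment, had 22.9, 21.3 and 26.3 CPM in control and 27.3, 26.3 and 29.9 CPM in mutant libraries, higher in every litter and just short of the threshold in the paired fit (log2 0.24, adjusted p = 0.0525). It holds a miR-17 seed match followed by an A at chr4:48431091-48431120, and with the correction it was at 0.12 (0.301). Nek8, a kinase of the compartment, went the other way, with 30.8, 36.7 and 28.5 CPM in control and 31.9, 28.8 and 26.7 CPM in mutant libraries (-0.13, adjusted p = 0.337 paired), and in litter 1 it was slightly higher in the mutant. Anks6, which binds Nek8, was at 0.14 (0.245).

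The transition zone genes, which encode the gate between cilium and cell and are mutated in nephronophthisis, Joubert and Meckel syndromes, gave 0 calls among 14 in any of the 3 fits (unpaired, paired, paired with the correction). The median was -0.02, with 5 members above and 9 below 0. Nphp4, a structural protein of the gate, was the highest at 0.24, with 7.99, 10.6 and 9.14 CPM in control and 10.2, 12.1 and 10.6 CPM in mutant libraries (adjusted p = 0.125 paired). B9d2, a member of the B9 complex, was the lowest at -0.25. Its libraries held 4.18, 5.82 and 6.21 CPM in control and 4.02, 5.17 and 4.07 CPM in mutant kidneys, lower in every litter, with the largest step in litter 3 (adjusted p = 0.242 paired). Nphp4 has a transcript of 5.03 kb and B9d2 one of 1.02 kb. Tmem216 and Ahi1 had all mutant values below all control values, at -0.13 and -0.11, without passing (adjusted p = 0.284 and 0.287 paired).

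The 3 basal body genes did not pass. Cep164, a distal appendage protein that docks the basal body at the membrane, had 50.8, 65.1 and 61.7 CPM in control and 58.8, 70.6 and 66.9 CPM in mutant libraries, higher in every litter (0.15, adjusted p = 0.103 paired). Ofd1, a centriole length regulator, had 41.4, 32.3 and 25.4 CPM in control and 39.6, 24.3 and 29.2 CPM in mutant libraries, with no shared direction over the litters (-0.09, 0.611 paired). Its sign turned with the library left out, as given with the other alternatives. Alms1, the Alström syndrome gene, was at -0.04.

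Of the 3 small GTPases, Arl3 fell in the paired fit. Arl3 releases lipidated cargo inside the cilium, and its level was 55.5 CPM per kb. Control libraries held 63.4, 61.1 and 55.8 CPM and mutant libraries 52.5, 54.4 and 47.6 CPM, so that every mutant value was below every control value. The log2 difference was -0.22 ± 0.053 (SE; adjusted p = 0.0346 paired, 0.421 with genotype alone). With the length and GC correction it was -0.15 (0.119), and without litter 1 the paired adjusted p was 0.220. Arl6, which recruits the BBSome to membranes, was lower in 3 of 3 litters (-0.19, 0.110 paired). Arl13b, the exchange factor for Arl3, had 30.3, 23.4 and 28.2 CPM in control and 29.4, 25.02 and 28.7 CPM in mutant libraries and was at 0.03 (0.837 paired).

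The BBSome, a coat complex that moves membrane proteins out of the cilium and is mutated in Bardet-Biedl syndrome, is represented by 7 subunits. None passed, the median was -0.03, and 2 were above and 5 below 0. Bbs5 was the lowest, with 28.2, 23.0 and 21.1 CPM in control and 22.6, 17.5 and 20.7 CPM in mutant libraries (-0.25, adjusted p = 0.104 paired). Its step was -0.32 and -0.39 in litters 1 and 2 and -0.03 in litter 3. Bbs4 was the highest, with 22.4, 19.5 and 19.6 CPM in control and 25.8, 19.6 and 21.4 CPM in mutant libraries (0.11, 0.366 paired).

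The IFT complexes did not differ detectably between the groups without the correction. Of 17 subunits 0 passed in the unpaired or the paired fit, the median was -0.01, and every 95% interval in the paired fit lay between -0.35 and 0.35. In IFT-B, 3 of 11 were above 0 and 8 below. Ift81, which with Ift74 binds tubulin, had 73.1, 61.3 and 54.7 CPM in control and 68.8, 48.7 and 51.01 CPM in mutant libraries (-0.17, adjusted p = 0.113 paired). Ift57 was the highest of IFT-B, with 27.4, 25.2 and 22.3 CPM in control and 26.6, 29.3 and 27.7 CPM in mutant libraries (0.16, 0.235 paired), and it was slightly lower in the mutant of litter 1. Ift88, the subunit mutated in the orpk cystic mouse, was near equal in both groups at 42.8 ± 7.09 and 42.4 ± 7.30 CPM (SD, n = 3; -0.01, 0.901 paired).

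In IFT-A 4 of 6 were above 0. Ttc21b (IFT139), which is mutated in nephronophthisis, had 76.1, 61.7 and 61.5 CPM in control and 80.5, 75.6 and 73.8 CPM in mutant libraries. It was higher in every litter and narrowly missed the threshold when paired (0.21, adjusted p = 0.0503), and was at 0.14 (0.153) with the correction. Wdr35 was the lowest of IFT-A, with 58.1, 53.8 and 50.9 CPM in control and 55.6, 52.0 and 52.0 CPM in mutant libraries (-0.03, 0.784 paired).

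All 4 motor genes were above 0 and none passed. Kif7, the kinesin of the ciliary tip that organises Gli proteins, was the highest, with 14.0, 14.2 and 12.8 CPM in control and 13.2, 16.7 and 14.7 CPM in mutant libraries (0.12, adjusted p = 0.430 paired). Kif3a, a subunit of kinesin-2 whose loss in tubules gives cysts, had 95.3, 76.5 and 75.2 CPM in control and 90.03, 78.5 and 87.8 CPM in mutant libraries (0.06, 0.575 paired). Kif3b, its partner, had mutant values all above control values by a narrow margin (51.9 ± 2.62 and 55.4 ± 1.06 CPM, SD, n = 3; 0.09, 0.285 paired). Dync2h1, the heavy chain of dynein-2, has the longest transcript of the 57 at 14.3 kb and was at 0.07, or -0.15 with the correction (0.675 paired and 0.272).

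Many members differed between litters in both genotypes. In 21 members both libraries of litter 1 lay above the other 4, a share of 36.8%, where 17.3% of all rows did so. They include 8 of the 17 IFT subunits, 4 transition zone genes, 3 BBSome genes and 2 motors, and 0 of the 6 cyst genes. In Cep290, the coiled-coil protein of the transition zone, litter 1 had 26.9 and 32.7 CPM (control and mutant), litter 2 22.2 and 15.7 CPM, and litter 3 17.1 and 19.1 CPM. In Ift74 litter 1 had 96.2 and 88.4 CPM, litter 2 79.7 and 59.6 CPM, and litter 3 57.6 and 61.5 CPM. In both genes litter 1 was the highest in either genotype. In 11 members both libraries of litter 3 lay below the other 4, or 19.3%, against 6.12% of rows. The remaining patterns did not exceed the share of all rows. Both litter 1 libraries lay below the other 4 in 6 members (10.5%, against 17.1% of rows), Pkd1 and Glis2 among them. Both litter 2 libraries lay above the other 4 in 5 members (8.77%, against 11.3%) and below them in 6 (10.5%, against 11.4%). Both litter 3 libraries lay above the other 4 in 2 members (3.51%, against 6.56%), 1 of them Bicc1.

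GC content moved with the litter 1 pattern. The 21 members had a median transcript GC of 44.4% (38.7% to 48.7%), against 51.7% in the other 36. Over the 57 members, Spearman's rho between GC and the log2 difference of litter 1 from the other litters was -0.868, and over all tested rows with a GC value -0.719, as a description across genes that share these libraries. After the length and GC correction 8 of 57 members had both litter 1 libraries on top, 5 of them from the 21, against 9.94% of rows. For the difference of litter 3 from the other litters, rho with GC was 0.321 over the members and 0.184 over the rows. After the correction 14 of 57 members had both litter 3 libraries lowest, against 11 before it, and 7 of the 14 were from the 11. Over all rows the share was 8.17% after the correction and 6.12% before it.

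**Figure D4:**
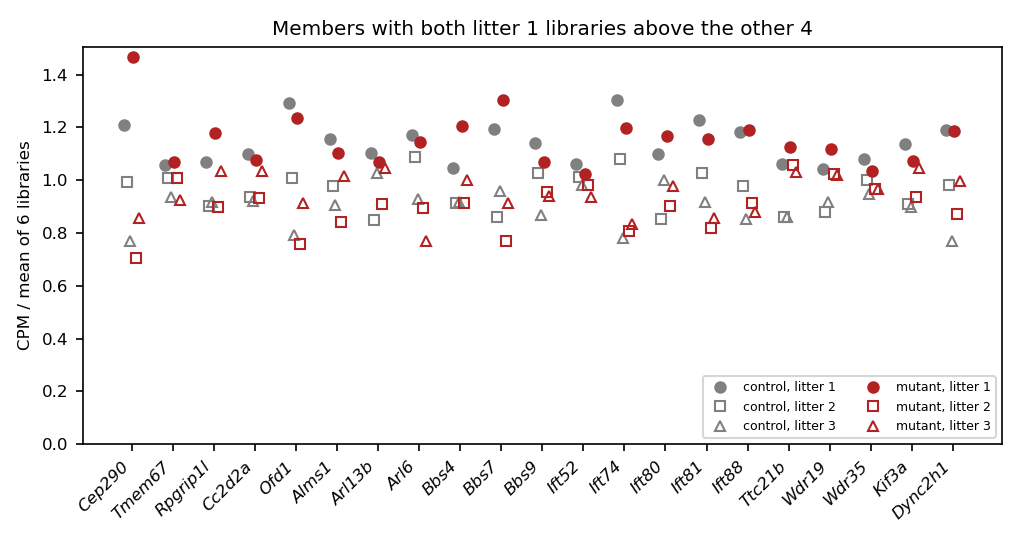
CPM divided by the gene's mean over 6 libraries (vertical axis) for the 21 members in which both litter 1 libraries lay above the other 4. Filled circles are litter 1, squares litter 2 and triangles litter 3, grey for control and red for mutant. The filled circles are on top by construction, and control and mutant of litter 1 are close to each other in most genes.

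A second list of 58 cilium genes outside the 57 (further transition zone, BBSome, IFT, dynein-2, basal body and other genes) was compared likewise. Their median was -0.01, 27 were above and 31 below 0, and 0 passed with genotype alone, with 1 at an unadjusted p below 0.05. Paired by litter 1 of 58 passed, or 1.72%, where 11.4% of rows did. It was Mapkbp1, a spindle pole protein linked to nephronophthisis, which had 31.3, 31.1 and 30.5 CPM in control and 36.7, 39.0 and 43.4 CPM in mutant libraries (0.35, adjusted p = 0.0201), and with the correction it was at 0.20 (0.129) and 0 of the 58 passed. Of 9 transcription factors of ciliated cells, 6 were in the table and 0 passed in any of the 3 fits. Motile cilium genes were low, with 7 of 15 in the table and a summed level of 34.0 to 38.6 CPM in control and 33.7 to 38.2 CPM in mutant libraries. One of them, Tekt1, a tektin of motile cilia, fell in the paired fit from 5.41 ± 0.704 to 3.65 ± 0.499 CPM (SD, n = 3; -0.51, adjusted p = 0.0268, and 0.0463 with the correction).

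Among 19 further genes of cystic kidney disease 0 passed with genotype alone, and 0 passed paired by litter with the correction. Lrp5, a Wnt co-receptor linked to polycystic liver and kidney, rose in the paired fit without the correction. It had 70.9, 87.5 and 99.5 CPM in control and 80.6, 105.8 and 108.7 CPM in mutant libraries, higher in every litter with overlapping groups (log2 0.19, adjusted p = 0.0417 paired, 0.190 with the correction).

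Hedgehog pathway genes, which depend on cilia for their control, were read as a second output. All 8 were above 0 before the correction, with a median of 0.24, and 4 of 8 rose paired by litter (Hhip, Gli2, Ptch1 and Gli3), where 7.93% of all rows were called higher, and 20.8% of rows in the longest class. These genes have a median transcript of 5579.5 bases. With the correction 1 of 8 passed, the median was 0.14 and the lowest value -0.03. Hhip, a membrane protein that binds Hedgehog ligands and is induced by the pathway, passed also with genotype alone. It had 2.79, 2.14 and 2.45 CPM in control and 4.64, 4.92 and 4.56 CPM in mutant libraries, without overlap (log2 0.82, adjusted p = 0.0396, or 0.00959 paired), and with the correction and the block it was at 0.67 (0.0273). Gli2 was at 0.40 (0.0126 paired, 0.0533 with the correction) and Ptch1 at 0.33 (0.0212 and 0.171). Gli3 was at 0.24 (0.0356 and 0.522). Cells of the stroma express these genes. Of 12 stromal markers, with a median transcript of 5493.5 bases, 4 rose and 0 fell in the paired fit (3 rose with the correction). With genotype alone 3 of the 12 passed, where 0.559% of all rows did. They were Fat4 (log2 0.78, adjusted p = 0.00456), Ntn1 (0.68, 0.00631) and Pdgfra (0.51, 0.0381), the same 3 that rose with the correction. The summed level of the 12 markers was 3042 to 3339 CPM in control and 3579 to 4237 CPM in mutant libraries. Most of that sum was Col3a1 (means 1637 and 1927 CPM) and Col1a1 (741 and 888 CPM), which were not called (adjusted p = 0.0928 and 0.0518 paired). These markers too were chosen with earlier results of these data known. The part of stroma in the Hedgehog values was not tested.

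Markers of other kidney cells were counted in the same fits, in which 7.93% of all rows were called higher and 3.51% lower when paired. Of 17 ureteric bud and collecting duct markers 5 rose and 0 fell in the paired fit (4 with the correction), and their sum was 984 to 1059 CPM in control and 1106 to 1166 CPM in mutant libraries. Of 14 proximal tubule markers 5 rose and 0 fell (2 with the correction), and 4 were below 0 without passing. Their sum was 998 to 1157 CPM in control and 1133 to 1397 CPM in mutant libraries. Lrp2 (means 332 and 479 CPM) was the largest part of that step, and it did not pass with the correction (adjusted p = 0.0847). Of 11 loop and distal tubule markers 0 were called, and of 11 podocyte markers 1 rose and 2 fell. Of 9 endothelial markers 5 rose and 0 fell, and 2 rose with the correction (sums of 1039 to 1049 and 1161 to 1172 CPM). Of 12 blood and macrophage markers 0 were called. Of 12 adrenal and gonad markers 4 were in the table. Only Sox9 among them rose (adjusted p = 0.0407 paired, 0.0954 with the correction), and a single gene does not measure the amount of such tissue. No marker in the table was at 0 in any library. The part of these cells in the differences of the cyst genes was not tested.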

How the data were processed

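Gene expression was measured by RNA sequencing of 6 libraries from whole kidneys at embryonic day 16, made with the Illumina TruSeq kit per the labels. The deposited values are CPM, scaled by the authors to each library's total. TopHat2 2.0.9, Picard, SAMtools and build NCBIM37 are named per the submitters' processing notes. The counting program, annotation and strand setting are not given in the sources used here. Every value was a whole number of reads within 0.001 reads, which gives the library totals. These hold 0.105% to 0.117% of reads outside the listed rows. Of the 13965 rows 526 join overlapping genes.

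Symbols, transcript lengths, GC content and 3′ UTRs came from GENCODE M21 (GRCm38), matched by gene identifier (13695 rows with a symbol, 270 without), and no coordinate was converted. Length is that of the longest coding transcript. Groups and litters came from the labels. limma 3.58.1 in R 4.3.3, with its mean-variance trend, was run two-sided on log2(CPM + 0.5), with Benjamini-Hochberg adjustment over 13766 rows and a threshold of 0.05. The model held genotype alone, and litter was added as a block in the alternative printed beside it. The labels give the pairing, and deviations from the group means correlated across genes at 0.619, 0.446 and 0.312 within litters and at -0.514 to 0.172 between them. The deviations within a group cancel by construction, so positive values within litters push those between litters down. For the correction, each library's deviation from the average library was regressed on natural splines (4 degrees of freedom each) of log2 length and GC and the fit removed, for 13517 rows with a length. The models were also run on simulated libraries. The changes planted there were larger than any member's difference, and the length trend was drawn at random per library. That run does not cover changes as small as those of the members, or a length trend that follows genotype.

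The members and lists were chosen with earlier results of these data known. Members named with values are the 6 cyst genes, those called with or without the block, and the highest and lowest of each role; of other lists, genes called unpaired or among the 3 lowest paired adjusted p. Names outside this rule were chosen after their values were seen. These are Ahi1, Tmem216, Anks6, Alms1, Arl6, Ift46, Ift74, Ift88, Kif3b, Dync2h1, Cep290, Gli3, Col1a1 and Col3a1. One result among the further cystic kidney disease genes is not reported here.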

Additional observations from a re-analysis of the deposited data

How the results depend on the processing

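Calls depended mainly on the pairing by litter. The 0 of 57 members called with genotype alone stayed 0 with trimmed-mean (TMM) or median-ratio scaling, a pseudocount of 1 or 0.1, no filter, a filter of 5 CPM, no variance trend, the length and GC correction alone, and each library left out in turn. With the replicate block (paired by litter) 6 members were called, 5 with the block and median-ratio scaling, 6 with the block and TMM scaling, 1 with the block plus the length and GC correction, 3 and 1 with length as the median of all or of basic-set coding transcripts, and 2, 4 and 12 without litters 1, 2 and 3. Over all rows the 77 calls became 1574 with the block, 1501 and 1489 with the block and median-ratio or TMM scaling, 204 with the correction, 792 with both, 1241 and 929 with the other lengths, 381, 1403 and 2348 in the block without litters 1, 2 and 3, and 22 to 100 with 1 library left out. The 58 other cilium genes gave 0 with genotype alone, 1 with the block under each scaling, 1 with the median of all coding transcripts, and 1, 2 and 5 without litters 1, 2 and 3. Of 506 values of 22 named members under 23 alternatives, 457 kept sign and side of the threshold, 36 were called and 13 turned sign, in 6 members not called in any of these. With 1 library left out, the log2 difference of Glis2 ran from -0.0405 to 0.22, of Ofd1 from -0.28 to 0.0852, of Arl13b from -0.0799 to 0.10, of Bbs4 from -0.0001 to 0.20, of Wdr35 from -0.0713 to 0.0241 and of Kif3a from -0.0015 to 0.17. In the block without litter 2 Ofd1 was at 0.0667 and Arl13b at -0.0095, and without litter 3 Kif3a at -0.0222. Arl13b was at -0.0248 with the basic-set length. The added alternatives, TMM scaling with the block and both other lengths, were chosen after seeing the data. The cause of these shifts was not tested. The planned edgeR and DESeq2 fits, with and without the block, were not run, because the values were deposited as CPM. Each value was a whole number of reads within 0.001 reads. A further check for count tests needed more low values than were listed and was not passed. With 3 libraries a group, 42 of 57 members had a paired 95% interval that held 0, and 56 of 57 intervals, all but that of B9d2, lay within 0.5 on either side of 0.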
